A study of Rattus norvegicus with 6 samples.

Results

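The genes described here serve the clearance of dying cells and the export of the cholesterol that comes with them. They are the receptor tyrosine kinases Axl, Mertk and Tyro3, the bridging ligands Gas6 and Mfge8, the engulfment adaptor Elmo1, the phosphatidylserine receptor Timd4, and the lipid genes Nr1h3, Abca1 and Abcg1. They were chosen by symbol, from array rows that the platform annotation gives exactly 1 symbol, and the row with the highest mean over all 6 arrays was to stand for a gene with several rows. Of the 10 genes, 9 had such a row, 1 row each, among 14506 genes and 29215 rows in all, and Timd4 was not analysed here. The set was put together with earlier results of these arrays known, Axl among them, so that how many of its members differ between the coatings is a description of the set and supports nothing.

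Bone cells of newborn Sprague Dawley rats, 2 to 5 days old, were taken from the long bones and allowed to adhere to plates coated with mouse prothrombin (PT), the precursor of thrombin, or with osteopontin (OPN) from bovine milk, an acidic bone matrix protein. RNA of the adherent cells was measured on Affymetrix Rat Gene 1.0 ST arrays, 3 for PT (replicates 1, 2 and 4) and 3 for OPN (replicates 2, 3 and 4). All 6 samples are mixed primary cells picked by adhesion alone, and the labels name no genetic change or drug. Nothing in the labels states that the arrays stand for separate animals or preparations. A p-value here is thus set against the spread of these 6 samples, part or all of which could be technical, and with 3 arrays a group the precision is low.

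Phagocytes recognise dying cells by phosphatidylserine exposed on the outer face of the membrane. Some receptors bind this lipid directly, as Timd4 does, while the TAM kinases Tyro3, Axl and Mertk reach it through the bridging proteins Gas6 and protein S, and integrins reach it through the bridging protein Mfge8. The adaptor Elmo1 acts with Dock proteins to activate Rac, which drives the membrane around the target. The engulfed cell brings cholesterol, whose derivatives activate the liver X receptors (LXR), and these raise the exporters Abca1 and Abcg1. In bone, macrophages of the marrow and osteoclasts both belong to the lineage that clears cells and debris.

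The receptors Axl and Mertk and the lipid genes stood lower, and the ligands and the adaptor stood higher, in OPN-adherent than in PT-adherent cells. Axl was 1.61-fold and Mertk 1.36-fold lower on OPN, while Mfge8 was 1.76-fold, Elmo1 1.51-fold and Gas6 1.26-fold higher. The LXR gene Nr1h3 was 1.47-fold and the exporter gene Abcg1 1.32-fold lower. Folds and differences are on the scale log2(signal + 16), which understates changes of dim genes, and a gene is called, and said to have risen or fallen, when limma's test over all 29215 rows gave a Benjamini-Hochberg adjusted p below 0.05. Of the 9 genes, 3 rose and 4 fell, against 7.62% of all 14506 genes that rose and 1.12% that fell. Signals of the OPN and PT arrays did not overlap for 8 of the 9, with OPN above PT for 3 and below it for 5, against 21.6% and 8.77% of all genes. In bulk samples, fewer cells of a type and less RNA per cell cannot be told apart.

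**Figure D1:**
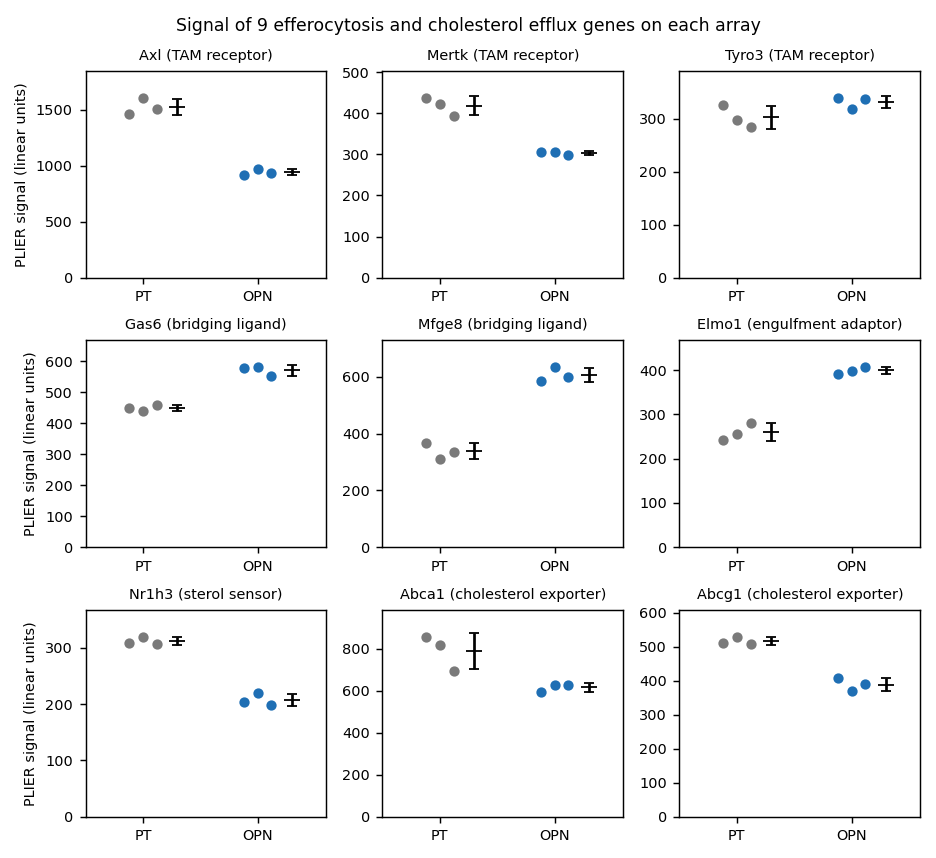
PLIER signal (linear units, axes from 0) of each of the 9 measured genes on the 3 PT arrays (grey) and the 3 OPN arrays (blue), in replicate order, with the mean and SD of each group in black. Axl lies between 1463 and 1607 on PT and between 919 and 972 on OPN, and Tyro3 is the 1 gene whose groups overlap.

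Signals on the arrays as a whole were alike. Array medians lay between 207.8 and 231.4 units, and correlations of log2 signals across rows were at least 0.988 within a coating and at most 0.979 between coatings. Calls over all rows leaned toward OPN, with 86.8% of them higher there, and this share was 68.4% with equal array medians and 64.6% with quantile normalisation. Markers of cell types moved with the coatings too. Of 12 macrophage markers 7 fell, and the summed signal of the 12 was 13427 to 13999 units on PT and 9623 to 10313 on OPN. Of the 5 not called, 4 lay above 0, Itgam (0.24), Cd68 (0.18), Vsig4 (0.14) and Csf1r (0.12), and Marco lay below. For Itgam and Cd68 every OPN array lay above every PT array. All 11 osteoblast markers rose (summed signal 11511 to 12383 on PT, 62436 to 70077 on OPN), as did all 10 stromal markers (1717 to 1772 and 8780 to 9563). Of 7 measured osteoclast markers 6 rose (2788 to 2949 and 20321 to 22877), of 10 endothelial markers 9 (1723 to 1874 and 2892 to 3078) and of 5 measured platelet markers 5 (2001 to 2095 and 3467 to 3761). Granulocyte, erythroid, lymphoid and dendritic markers, 26 measured in all, held no called gene in limma's test. All 8 granulocyte markers lay above 0 (median 0.25) and all 6 measured erythroid markers below it (median -0.19). In each of these 2 lists 4 markers had an unadjusted p below 0.05 in limma. Of all 14506 genes, 2459 lay higher and 796 lower at that threshold, and 61.9% lay above 0. No measured marker of these 10 lists was at 0, the lowest mean being 48.7 units for the dendritic marker Cd209a, and how much of such a signal is background is not known.

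Among the receptors, Axl fell most. Its signals were 1463, 1607 and 1502 on the PT arrays and 919, 972 and 937 on the OPN arrays. Every OPN array lay below every PT array, with means of 943 ± 27.4 and 1524 ± 74.6 (SD, n = 3 each). The log2 difference was -0.68 (SE 0.07, adjusted p = 0.000535 in limma), and 0.0414% of all genes had a difference further below 0. Axl responds to Gas6 and is made by macrophages and by many cells of mesenchymal origin.

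Mertk, the TAM receptor best known for clearance by resident macrophages and by the retinal pigment epithelium, fell less. Its signals were 438, 424 and 394 on PT and 306, 306 and 298 on OPN, again without overlap. The means were 418 ± 22.6 and 303 ± 4.74 (SD, n = 3 each), and the log2 difference was -0.44 (SE 0.07, adjusted p = 0.00605 in limma).

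Tyro3, the TAM receptor most associated with the nervous system, was not called. Signals were 326, 297 and 284 on PT and 339.6, 318 and 337 on OPN, so that PT replicate 1 lay above OPN replicate 3 and the groups overlapped. The log2 difference was 0.13, with a 95% interval from -0.05 to 0.30 (adjusted p = 0.454 in limma). A difference of the size seen for Axl or Mertk lies outside that interval.

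Within each array the log2 signal of one receptor minus that of another compares their changes and not their levels. For Axl minus Tyro3 the mean on OPN less that on PT was -0.81, and for Mertk minus Tyro3 it was -0.57. For Axl minus Mertk it was -0.24, with values between 1.70 and 1.89 on PT and between 1.54 and 1.62 on OPN. The groups did not overlap in any of these 3 pairs. By an exact permutation test (two-sided) p was 0.1 for each, the smallest p that 3 against 3 arrays allow, and 0.114 after Benjamini-Hochberg adjustment over the 8 pairs compared here and below.

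On the arrays where Axl and Mertk fell, 7 of the 12 macrophage markers fell too, and 4 lay above 0 without a call. The median log2 difference was -0.56 over the 12, and their part in the receptors' differences was not tested. The 5 genes whose log2 profiles over the 6 arrays, centred per gene, lay nearest to that of Axl were Clec4a3, Fcna, Clec4a1, Atp1b1 and Cd86. Their root mean square distances from Axl were 0.031, 0.031, 0.032, 0.035 and 0.038 on the log2 scale. This likeness rests on 6 arrays in 2 groups.

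**Figure D2:**
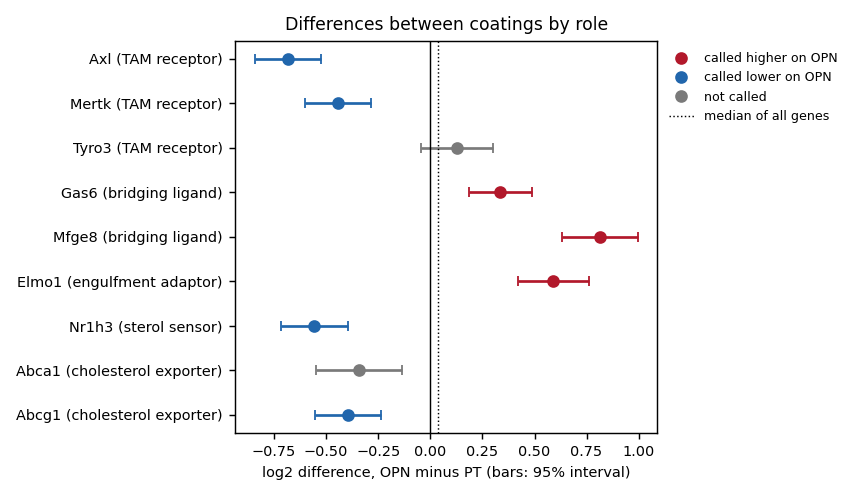
Log2 difference, OPN minus PT, of the 9 genes ordered by role (points) with 95% intervals from limma (bars), coloured by call. The dotted line is the median of all genes, 0.04. Receptors other than Tyro3 and the lipid genes lie to the left of 0, and the ligands and Elmo1 to the right.

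The bridging ligands went the other way. Mfge8, the milk fat globule protein that links phosphatidylserine to αv integrins, had signals of 366, 312 and 337 on PT and 586, 633 and 598 on OPN. The lowest OPN array stood well above the highest PT array. Means were 338 ± 27.4 and 606 ± 24.7 (SD, n = 3 each), with a log2 difference of 0.81 (SE 0.08, adjusted p = 0.000413 in limma), and 97.8% of all genes had a lower difference.

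Gas6, the vitamin K-dependent ligand of the TAM receptors, rose by less. Its signals were 448, 439 and 459.9 on PT and 580.3, 581 and 551 on OPN. The groups did not overlap, and the spread within each was small (449 ± 10.6 and 571 ± 17.1, SD, n = 3 each). The log2 difference was 0.34 (SE 0.07, adjusted p = 0.0191 in limma). This call was lost without PT replicate 1, PT replicate 2, OPN replicate 2 or OPN replicate 3, at adjusted p between 0.0513 and 0.0982, while the difference stayed between 0.32 and 0.36 over all 6 such fits.

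Since both ligands rose, the 250 bases before their start sites are shown, from RefSeq's GRCr8 annotation of the rat, 5′ to 3′ on the strand of the gene. Capitals mark GC boxes, searched as GGGCGG on both strands. The stretch of Gas6 is chr16:82747426-82747675 (plus strand) and that of Mfge8 is chr1:142489432-142489681 (minus strand).
Gas6: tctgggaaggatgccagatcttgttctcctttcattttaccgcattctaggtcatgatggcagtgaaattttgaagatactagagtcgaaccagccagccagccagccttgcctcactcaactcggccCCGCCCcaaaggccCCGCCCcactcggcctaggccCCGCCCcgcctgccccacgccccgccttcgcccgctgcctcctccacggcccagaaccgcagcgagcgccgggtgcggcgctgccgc
Mfge8: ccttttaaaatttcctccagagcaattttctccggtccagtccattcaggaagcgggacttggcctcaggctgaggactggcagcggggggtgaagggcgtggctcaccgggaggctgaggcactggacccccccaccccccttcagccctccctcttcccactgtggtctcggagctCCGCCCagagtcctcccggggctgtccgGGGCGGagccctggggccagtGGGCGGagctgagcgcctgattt
Each stretch held 3 GC boxes, and 30.5% of the 33469 promoters of this table held at least 1 in the same 250 bases. Promoters were matched by symbol for 9 of the 10 genes, Abcg1 being the other one, and 7 of these 9 held a GC box. Axl, Mertk and Abca1, which lay lower on OPN, and the uncalled Tyro3 were among these 7. GC boxes were thus not particular to genes that rose. An AP-1 site, TGANTCA, and an E-box, CACGTG, were found in the stretches of 1 gene each, Tyro3 and Abca1, against 6.34% and 5.59% of all promoters. These matches describe letters in a window and not binding.

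Receptor and ligand signals of Axl, Mertk and Gas6 changed in opposite directions. Axl minus Gas6 was between 1.67 and 1.84 on PT and between 0.65 and 0.75 on OPN, a difference of -1.02. Mertk minus Gas6 gave -0.78. Gas6 minus Mfge8 gave -0.48, Mfge8 having the larger rise. None of the 3 pairs overlapped between coatings (exact two-sided permutation test, p = 0.1 each, 0.114 adjusted over the 8 pairs). Axl and Mertk lay lower on OPN and Gas6 higher, each without overlap. The outcome for Axl minus Gas6 and for Mertk minus Gas6 was thus fixed beforehand. It restates the single genes and adds no support. The 5 genes nearest to Gas6 in profile were Lrrfip2, Atp6v0e1, Slc2a1, Pea15 and Nab2, at distances of 0.011 to 0.023. They were picked as the nearest of all genes, and this likeness too rests on 6 arrays in 2 groups.

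On the arrays where the ligands rose, 11 of 11 osteoblast, 10 of 10 stromal and 9 of 10 endothelial markers rose as well. Their median log2 differences were 2.46, 2.17 and 0.66. So did 6 of 7 osteoclast and 5 of 5 platelet markers, with medians of 2.42 and 0.74. The part of these cell types in the rise of Gas6 and Mfge8 was not tested.

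Elmo1, the cytoplasmic adaptor that pairs with Dock proteins, rose with the ligands. Signals were 242, 257 and 281 on PT and 392, 398 and 406 on OPN. The groups lay far apart for their spread, 260.1 ± 19.7 and 399 ± 7.17 (SD, n = 3 each). The log2 difference was 0.59 (SE 0.07, adjusted p = 0.00188 in limma). On the same arrays 6 of 7 osteoclast and 11 of 11 osteoblast markers rose, with median log2 differences of 2.42 and 2.46. So did 10 of 10 stromal, 9 of 10 endothelial and 5 of 5 platelet markers (medians 2.17, 0.66 and 0.74). The part of these cell types in the rise of Elmo1 was not tested.

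A site of the form GAGGAAGT, bound by the myeloid factor PU.1, occurred in 2.04% of promoters and, of the 9 matched here, in that of Elmo1 alone. It is shown in capitals within 30 bases at chr17:49518186-49518215 (GRCr8, minus strand), 56 to 27 bases before the start site used by the table. It overlaps none of the other motifs searched. The annotated gene reaches 366 bases before that start site, so that these 30 bases lie within it.
Elmo1: ggaggaaggaaGAGGAAGTgagagcagcgg

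The lipid genes were lower on OPN. Nr1h3, which encodes the sterol-activated nuclear receptor LXRα, had signals of 309, 319.6 and 306 on PT and 204, 219 and 198 on OPN. The groups did not overlap, with means of 311 ± 7.23 and 207 ± 10.9 (SD, n = 3 each). The log2 difference was -0.56 (SE 0.07, adjusted p = 0.0017 in limma), and 0.179% of all genes had a difference further below 0.

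Abcg1, the transporter that loads cholesterol onto mature high-density lipoprotein, had signals of 512, 529 and 507 on PT and 407, 368 and 389 on OPN. All OPN arrays lay below all PT arrays. Means were 516 ± 11.8 and 388 ± 19.4 (SD, n = 3 each), with a log2 difference of -0.40 (SE 0.07, adjusted p = 0.0106 in limma). Leaving out OPN replicate 3 ended the call (-0.36, adjusted p = 0.0623).

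Abca1, the transporter that loads lipid-poor apolipoprotein A-I, lay in the same direction without a call. Signals were 856, 817 and 693 on PT and 592, 627 and 627 on OPN. The groups did not overlap, but PT replicate 4 stood well below the other PT arrays, and the SD was 85.4 on PT and 20.1 on OPN around means of 789 and 616. The log2 difference was -0.34, with a 95% interval from -0.55 to -0.14 before adjustment (adjusted p = 0.0693 in limma). Without PT replicate 4 it was -0.43 and passed (adjusted p = 0.0202), as it did with equal array medians (-0.41, adjusted p = 0.0364). Quantile normalisation gave -0.41, just short of a call (adjusted p = 0.0538).

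The exporters did not differ from each other in their change by more than the spread. Abca1 minus Abcg1 was 0.59 ± 0.14 on PT and 0.64 ± 0.11 on OPN (SD, n = 3 each, exact two-sided permutation p = 0.6, also after adjustment), and the difference of 0.05 turned to -0.02 without PT replicate 4. Axl minus Abca1 gave -0.34 without overlap (exact permutation p = 0.1, 0.114 adjusted). Of the 12 macrophage markers 7 fell and 4 lay above 0, and their part in the lower signals of the lipid genes was not tested.

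LXR binds DNA with its partner RXR at repeats of a short half-site spaced by 4 bases. The consensus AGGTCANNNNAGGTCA was in 0 of the 9 matched promoters and in 0.00299% of all. A looser core, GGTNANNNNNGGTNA, which takes in the consensus and was written after the promoter of Abca1 had been seen, was in that of Abca1 alone among the 9, and in 0.592% of all. It is shown in capitals, as its reverse complement, in 30 bases at chr5:72596522-72596551 (GRCr8, minus strand), 78 to 49 bases before the start site used by the table, where it overlaps none of the other motifs searched. The annotated gene reaches 90 bases before that start site, so that these 30 bases lie within it.
Abca1: acagcgttTGACCGGTAGTAACCccggcgc
The absence of a match in the stretch of Nr1h3 says only that these letters are not in that window.

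Other genes of these pathways were counted from 7 lists that share no gene with the 9. Among their 121 measured genes, 16 rose and 8 fell, against 7.62% of all 14506 genes that rose and 1.12% that fell. The same shares stand beside the counts of each list below. Since the lists were chosen with earlier results of these data known, the counts describe them and support nothing. The median log2 difference was 0.04, as it was over all genes. The lists differed in how their called genes split between directions.

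**Figure D3:**
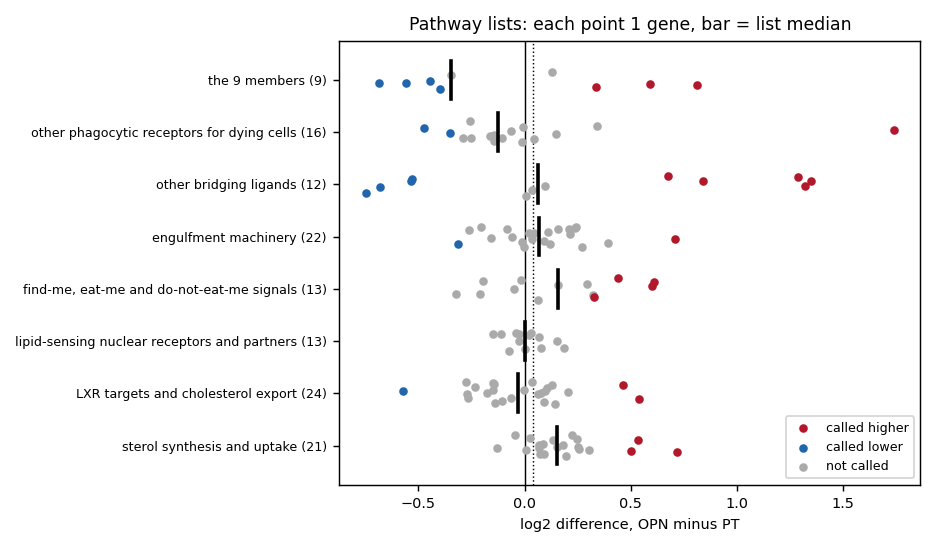
Log2 difference, OPN minus PT, of each measured gene (points, coloured by call, with vertical scatter for legibility) in the 9 members and in 7 pathway lists, with the number measured in brackets. Black bars are list medians, from -0.34 for the 9 members to 0.16 for the find-me and eat-me signals, and the dotted line is the median of all genes.

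Among 16 other phagocytic receptors, 1 rose and 2 fell (median -0.13). The gene that rose was Itgb3 (1.74, adjusted p = 9.65e-06), an integrin chain that binds osteopontin and Mfge8 and is also counted among the osteoclast markers above. The inhibitory lipid receptor gene Cd300a (-0.47, adjusted p = 0.00672) and the endotoxin co-receptor gene Cd14 (-0.35, adjusted p = 0.0479) fell, the latter a call lost in 5 of the 6 fits that left out 1 array, all but that without PT replicate 1 (adjusted p up to 0.189). The apolipoprotein and debris receptor Lrp1 (-0.29, adjusted p = 0.0829) and the oxidised lipid receptor Olr1 (-0.25, adjusted p = 0.0962) were not called in limma's test.

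Other bridging ligands split. Of 12 measured, 5 rose and 4 fell. Pros1 (1.35), which encodes protein S, the other ligand of the TAM receptors, had 148 ± 16.9 units on PT and 400.1 ± 17.8 on OPN (SD, n = 3 each, adjusted p = 4.19e-05 in limma). Thbs1 (1.32), Ptx3 (1.29), Anxa5 (0.84) and Anxa1 (0.68) rose with it, genes of thrombospondin, a pentraxin and a pair of phosphatidylserine-binding annexins. The complement genes C1qa (-0.75), C1qc (-0.68) and C1qb (-0.53), which are also macrophage markers above, and the galectin gene Lgals3 (-0.53) fell. C1qc, C1qb, Lgals3 and Anxa1 are named after their values were seen. The call of Anxa1 was lost without each of the arrays except PT replicate 4 (adjusted p up to 0.138).

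Engulfment machinery held 1 gene called in each direction. Of 22 measured genes the adaptor gene Gulp1 rose (0.71, adjusted p = 0.0128) and the oxidase gene Cybb fell (-0.31, adjusted p = 0.0329), with a median of 0.07. At an unadjusted p below 0.05, 6 lay higher and 3 lower, against 2459 and 796 of all 14506 genes. Gulp1 was dim, at 62.0 ± 13.2 units on PT and 110.3 ± 9.37 on OPN (SD, n = 3 each), and leaving out OPN replicate 2 or OPN replicate 3 ended its call (adjusted p = 0.0532 and 0.0626). That of Cybb was lost without each array in turn (adjusted p between 0.0662 and 0.155). The scaffold gene Bcar1 (0.39, adjusted p = 0.0596), the Rac activator Vav1 (-0.26, adjusted p = 0.0796) and the adaptor Crk (0.24, adjusted p = 0.0796) were not called in limma's test. Vav1 was called with equal array medians and with quantile normalisation (adjusted p = 0.0312 and 0.0187 in limma), Bcar1 and Crk with neither.

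Among find-me, eat-me and do-not-eat-me signals 4 of 13 measured genes rose. They were the scramblase gene Ano6 (0.61, adjusted p = 0.000689), the lipid receptor gene S1pr1 (0.60, adjusted p = 0.00421), the flippase gene Atp11a (0.44, adjusted p = 0.0172) and the chaperone gene Calr (0.32, adjusted p = 0.0437). No gene of this list fell in limma's test. At an unadjusted p below 0.05, 6 lay higher and 3 lower, against 2459 and 796 of all 14506 genes. Among the 3 lower ones, Sirpa (-0.32, adjusted p = 0.0594), the receptor for the do-not-eat-me signal, was called under either scaling of the arrays (adjusted p = 0.0306 for equal medians, 0.0439 for quantiles). The call of Calr was lost with equal medians (adjusted p = 0.111) and in 5 of the 6 fits that left out 1 array, all but that without PT replicate 4 (up to 0.177), and that of Atp11a without PT replicate 2, OPN replicate 2 or OPN replicate 3 (up to 0.0813).

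The other lipid-sensing nuclear receptors and their partners were not called. Of 13 measured genes, 0 passed in limma's test, 1 lay higher at an unadjusted p below 0.05, and 0 passed under any alternative, with a median of 0.00 (log2). With 7.62% of all genes called higher and 1.12% lower, few calls would come in a list of 13. At an unadjusted p below 0.05, 2459 of all 14506 genes lay higher. Those with the smallest p were Ppargc1b (0.18), Nr1h2 (0.15), Pparg (-0.15), Ncor1 (-0.11) and Ncoa1 (0.08). Nr1h2, which encodes LXRβ, had a 95% interval from -0.03 to 0.34. Ncoa1 turned to -0.00097 with quantile normalisation.

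Among 24 other LXR targets and cholesterol genes, 2 rose and 1 fell, and 13 lay below 0 (median -0.03). Apoe, the apolipoprotein through which macrophages release cholesterol, fell (-0.57, adjusted p = 0.00418), from 2819 ± 211 units on PT to 1891 ± 121 on OPN (SD, n = 3 each). The desaturase gene Scd2 (0.54, adjusted p = 0.00535) and the lipase gene Lpl (0.46, adjusted p = 0.00984) rose, the latter no longer called when OPN replicate 3 was left out (adjusted p = 0.0546). Mylip (-0.27, adjusted p = 0.0552), which encodes the LXR-induced ligase that degrades the LDL receptor, and Abcg4 (-0.27, adjusted p = 0.103) were not called, and both were called with either scaling of the arrays (Mylip at adjusted p = 0.0155 and 0.012, Abcg4 at 0.041 and 0.0367, for equal medians and quantile normalisation in limma).

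Of 21 measured sterol synthesis and uptake genes 19 lay above 0, with a median of 0.15, against 61.9% of all genes and a median of 0.04. With equal array medians 17 lay above 0 (42.3% of all genes), and with quantile normalisation 15 (43.4%). Insig1 (0.72, adjusted p = 0.000413) and Insig2 (0.50, adjusted p = 0.00951), which encode the retention proteins of the sterol sensor Scap, and the methylsterol oxidase gene Msmo1 (0.53, adjusted p = 0.0137) rose. The call of Msmo1 was lost without PT replicate 2, OPN replicate 2, OPN replicate 3 or OPN replicate 4 (adjusted p up to 0.0578). No gene of the list fell in limma's test. At an unadjusted p below 0.05, 9 lay higher and 0 lower, against 2459 and 796 of all 14506 genes. Cyp51 (0.31, adjusted p = 0.0531) and Dhcr7 (0.25, adjusted p = 0.065), enzymes of the same route, were not called.

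**Figure D4:**
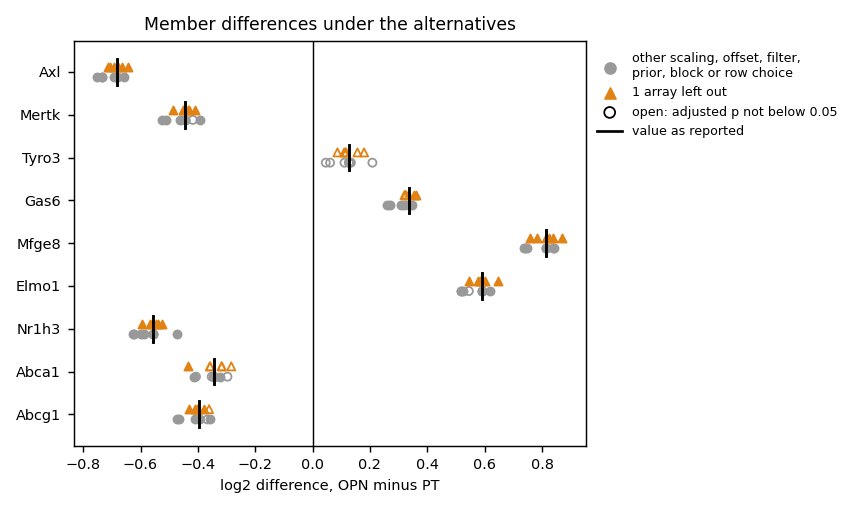
Log2 difference, OPN minus PT, of the 9 genes as reported (black bars), under another scaling, offset, filter, variance prior, replicate block or row choice (grey circles) and with 1 array left out (orange triangles), where open symbols did not pass an adjusted p of 0.05. Every gene kept its side of 0 in all 14 alternatives, and Axl, Mfge8 and Nr1h3 kept their call in each. Row choice repeats the reported fit for these genes, and filter and prior leave the difference unchanged.

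Every one of the 9 genes kept its direction under all 14 alternatives, but not all of these could change it. Row choice repeats the reported fit, since no member had a further row. Filter and variance prior alter the test and leave the difference as it was. Axl lay between -0.75 and -0.64, Mfge8 between 0.74 and 0.87 and Nr1h3 between -0.63 and -0.47, each called throughout (adjusted p up to 0.0207, 0.0114 and 0.043 in limma). Tyro3 lay between 0.05 and 0.21 and was called in none.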

How the data were processed

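RNA of 6 samples was measured on Affymetrix Rat Gene 1.0 ST arrays. Per the submitters' processing notes the authors made the deposited intensity values, linear and above 0, with Affymetrix Expression Console and PLIER, 1 value per probe set. Their versions, the background correction, the scaling and the build were not given in the sources used here. No detection call was used, so that the background in dim rows is unknown.

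Rows were named through the platform annotation, with 15310 rows of 1 symbol, 323 of several and 13582 of none. Entrez identifiers of 15279 of the former were found in the GRCr8 gene table, and 0 symbols changed. Intensities were transformed as log2(intensity + 16) and fitted in limma 3.58.1 (lmFit, eBayes; R 4.3.3) over all 29215 rows, with coating as the term, no filter and no block. The test was also run on simulated arrays with independent normal noise and known changes. Such data meet its assumptions, so that run says nothing about the noise of the real arrays. Alternatives changed scaling, offset (1 or 64), filter (mean of at least 50), variance prior, block, row choice or the arrays used. Named genes are the members, up to 5 genes of smallest p per list and called genes of lists with 5 or fewer, and the 5 nearest profiles to Axl and Gas6. Members and lists were chosen with earlier results of these data known. Summed marker signals are sums of linear intensity over a list.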

Additional observations from a re-analysis of the deposited data

How the results depend on the processing

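The count of members that fell was 4, and 3 to 5 when 1 array was left out, while that of members that rose was 3, and 2 to 3. Equal array medians, quantile normalisation, an offset of 64 and the intensity trend gave 15, 17, 13 and 14 pathway genes lower on OPN (8 as reported) and 551, 745, 382 and 508 rows lower (225 as reported). Leaving out 1 array gave 928 to 1357 rows higher, 95 to 181 lower, 10 to 17 pathway genes higher and 6 to 8 lower, against 1475, 225, 16 and 8. Replicate numbers 2 and 4 occur in both coatings, and no label says what they share. Deviations from the coating mean correlated across rows at -0.08 and 0.07 for same-numbered arrays. They correlated at 0.01 for PT replicate 2 with OPN replicate 4, and at -0.11 for PT replicate 4 with OPN replicate 2. With 3 arrays a group these values cannot show whether same-numbered samples share a preparation. With the replicate number as a block, which leaves 1 residual degree of freedom per row, 1 member rose (Mfge8) and 2 fell (Axl and Nr1h3), with 7 and 5 pathway genes and 618 and 48 rows higher and lower. Over the 8 pairs, 7 kept their sign in all settings, and Abca1 minus Abcg1 lay between -0.02 and 0.12 when 1 array was left out, with -0.024 without PT replicate 4. Of 126 member values under alternatives, 113 stayed on the same side of the threshold, 9 lost and 4 gained a call. The values of the row choice are among those that stayed, and they repeat the reported fit. Ncoa1 was the 1 named gene that changed sign, to -0.00097 with quantile normalisation. The cause of these changes was not tested. Over the alternatives the counts of some lists ranged widely, with 0 to 5 receptors and 1 to 5 LXR targets lower, 0 to 3 engulfment genes in each direction, and 1 to 7 sterol genes and 1 to 5 signal genes higher. Signal over background could not be read, so dim genes such as Gulp1 carry an unknown background.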
